A study of Drosophila melanogaster with 2 samples.

Results

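The genes examined here encode 9 components of insulin and TOR signalling, measured by RNA-seq in Kc167 cells, a Drosophila melanogaster cell line of embryonic origin. They are chico, Akt, foxo, Tsc1, gig, Rheb, mTor (also called Tor, and not to be confused with torso), S6k and Thor. The genes were taken by symbol, by a rule that uses no measured value, from a list drawn up with earlier results of these data known, and all 9 were found among the 17807 genes of the deposited table. Control cells were grown at 25 °C in SFX insect medium and then exposed for 1 h at room temperature to 2% DMSO. DMSO is the solvent of the inhibitor used in other experiments of the study. The 2 libraries are replicates of this single condition. There is therefore no treated group, and no comparison between conditions was made. The labels do not say whether the replicates came from separate cultures, so the spread between them may be technical.

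Insulin and TOR signalling links growth of a cell to the supply of nutrients. Insulin-like peptides bind the insulin receptor InR, and the adaptor chico passes the signal to PI3K, which makes a membrane lipid that recruits the kinase Akt. Akt keeps the transcription factor foxo out of the nucleus and relieves the block that the Tsc1 and gig proteins (gig is the fly TSC2) place on the small GTPase Rheb. Active Rheb switches on the kinase mTor, which raises protein synthesis by phosphorylating S6k and by inactivating Thor, the fly 4E-BP. Much of this signalling runs through phosphorylation and protein location, which RNA levels do not measure.

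All 9 genes were detected, defined as at least 10 counted read pairs in each library, against 59.5% of the 13883 protein-coding genes of the table. Together the 9 genes took 0.136% of the counted read pairs of replicate 1 and 0.135% of replicate 2. Levels are given as TPM, a measure of counts per base of gene that has the same total in every library, and ran over a 9.35-fold range, with S6k the highest and foxo the lowest. The median of the 9 genes was 40.9 TPM, against 32.7 TPM over the 8263 detected protein-coding genes, and 6 of the 9 lay above 32.7 TPM. These are descriptions of a chosen list and carry no test. In a bulk sample, fewer cells expressing a gene and less RNA per cell cannot be told apart.

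**Figure D1:**
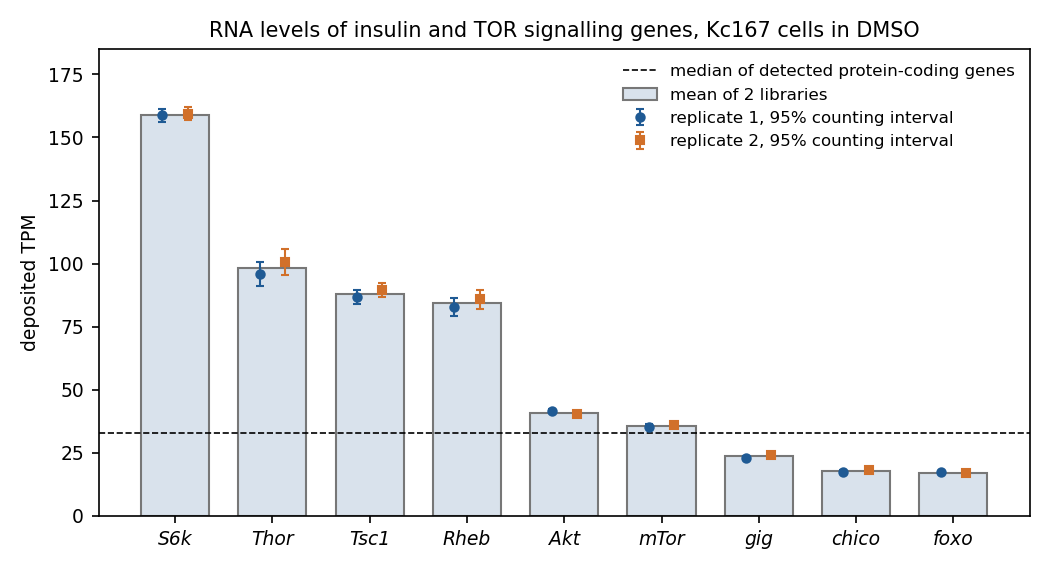
TPM of the 9 genes in each library, with 1 point per library. S6k stands at the top with 159 TPM in both libraries, foxo and chico at the bottom with 16.8 to 18.0 TPM, and the points of each gene lie close together.

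At the head of the pathway, the adaptor chico (FBgn0024248, chromosome 2L, 10242512 to 10247078, minus strand) had 1911 and 1853 counts and 17.4 and 18.0 TPM in replicates 1 and 2. Its mean was 17.7 ± 0.421 TPM (SD, n = 2), which placed it at percentile 35.8 of detected protein-coding genes. The receptor it binds, InR, stood at 32.3 ± 0.127 TPM (SD, n = 2), so the level of chico was 0.548 times that of InR by deposited TPM. This ratio was 0.416 when each exonic base was counted once and 0.392 with the longest annotated transcript. The annotation gives chico 3 transcripts from 1 start site.

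Akt (FBgn0010379, chromosome 3R, 16099228 to 16105670, plus strand) is the central kinase of the insulin branch. It had 8805 and 8022 counts, the second highest CPM (counts relative to the library total, with no length) of the 9 genes. Its TPM was 41.5 in replicate 1 and 40.3 in replicate 2, a mean of 40.9 ± 0.829 TPM (SD, n = 2) and percentile 56.5. The kinase that activates it, Pdk1, had 21.2 ± 0.00331 TPM (SD, n = 2) by deposited length. The gap between the 2 kinases depended on that length. With each exonic base counted once Pdk1 had 67.6 TPM and Akt 102 TPM, and with the longest annotated transcript 86.2 and 98.6 TPM.

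The transcription factor foxo (FBgn0038197, chromosome 3R, 14056945 to 14087978, plus strand), which turns on genes of fasting and stress when Akt is inactive, had 3479 and 3166 counts. These gave 17.3 and 16.8 TPM, a mean of 17.0 ± 0.359 (SD, n = 2) and percentile 35.0. On the deposited scale foxo and chico were the lowest of the list. Their library values did not overlap, but the 95% counting intervals of their TPM did, so the order of this pair is not resolved on that scale. It also depended on the length, since with each exonic base counted once foxo was the higher, at 47.9 against 31.3 TPM.

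The partners of the TSC complex, the brake on Rheb, stood far apart on the deposited scale. Tsc1 (FBgn0026317, chromosome 3R, 24130307 to 24134654, plus strand) had 86.7 and 89.4 TPM from 3737 and 3615 counts, a mean of 88.1 ± 1.95 TPM (SD, n = 2). Its partner gig (FBgn0005198, chromosome 3L, 20129181 to 20139010, plus strand), which carries the GTPase-activating domain, had 23.0 and 23.9 TPM from 2947 and 2877 counts, a mean of 23.5 ± 0.671 (SD, n = 2). The ratio of gig to Tsc1 was 0.265 in replicate 1 and 0.268 in replicate 2, so it was repeatable between libraries. It was not robust to the definition of gene length, which is taken up after the levels.

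The target of that complex, Rheb (FBgn0041191, chromosome 3R, 5568921 to 5570491, plus strand), had 82.8 and 85.7 TPM from 2092 and 2032 counts. Its mean was 84.3 ± 2.11 TPM (SD, n = 2), 0.957 times the level of Tsc1. The kinase mTor (FBgn0021796, chromosome 2L, 13004480 to 13013197, plus strand), which Rheb activates, had 35.3 and 36.0 TPM from 6245 and 5967 counts, a mean of 35.7 ± 0.477 (SD, n = 2). The level of Rheb was thus 2.36 times that of mTor, and 2.20 times when each exonic base was counted once.

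The outputs of the pathway held the top of the list. The kinase S6k (FBgn0283472, chromosome 3L, 5797549 to 5810931, minus strand) had 14710 and 13844 counts and 158.8 and 159.4 TPM, a mean of 159 ± 0.425 (SD, n = 2) and percentile 88.3. Thor (FBgn0261560, chromosome 2L, 3478434 to 3479612, plus strand), a repressor of cap-dependent translation whose gene foxo activates, had 95.8 and 100.5 TPM from 1507 and 1482 counts, a mean of 98.1 ± 3.31 (SD, n = 2). Thor had the lowest CPM of the 9 genes, at 45.9, and the second highest TPM. It is the shortest gene of the list, with a deposited length of 1422 bases and 755 exonic bases. S6k was the highest in CPM as well, at 438, followed by Akt at 258 and mTor at 187.

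**Figure D2:**
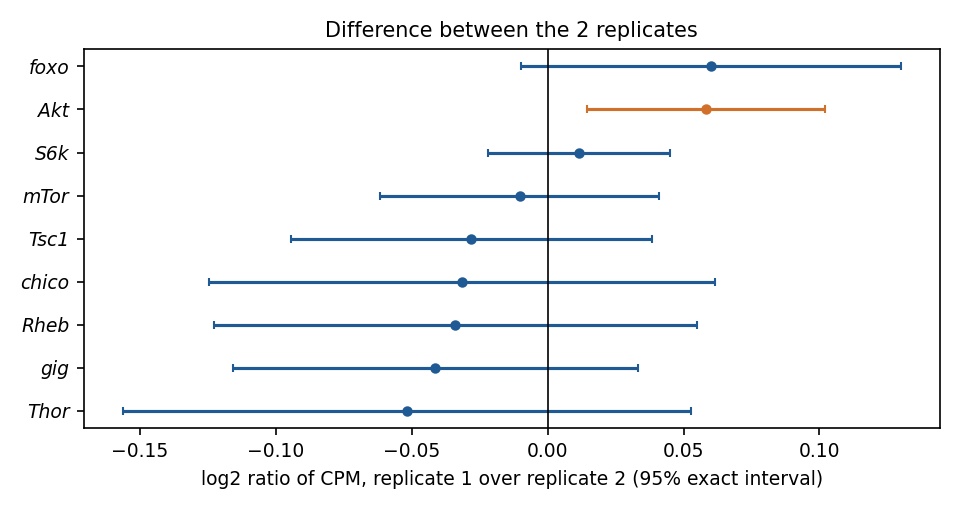
Log2 ratio of CPM, replicate 1 over replicate 2, for each of the 9 genes, with exact 95% binomial intervals as bars and the called gene in orange. Only the interval of Akt, 0.01 to 0.10, leaves out 0, and all ratios lie between -0.05 and 0.06.

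The replicates agreed closely at these genes. To ask whether counting error alone covered the difference between the libraries, the share of each gene's counts that fell in replicate 1 was given an exact binomial (Clopper-Pearson) 95% interval and set against the share that the library totals give. Among the 8846 genes that reached 10 counts in both libraries, 9.87% had an interval that left out the library share, 325 with a higher and 548 with a lower share in replicate 1. Of the 9 genes, 1 did so, which is close to that background. It was Akt, with a log2 ratio of replicate 1 over replicate 2 of 0.06 (95% interval 0.01 to 0.10), or 1.04-fold. The ratio of foxo was also 0.06, with an interval of -0.01 to 0.13 from its smaller counts. The median absolute log2 ratio was 0.03 over the 9 genes and 0.05 over the detected protein-coding genes. These intervals cover counting error only, and read pairs copied by PCR are not independent molecules.

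The gene length behind the deposited TPM affects comparisons between these genes. For all 9, as for 98.9% of the 17710 annotated genes, the deposited length equals the exon lengths of every annotated transcript added together, so that a base shared by several transcripts is counted several times. The TPM of a gene with many transcripts is lowered by this, and that of a gene with 1 transcript is raised. The ratio of deposited length to exonic length, with each exonic base counted once, had a median of 2.00 over the 9 genes and 1.83 over the detected protein-coding genes. It was 1.00 for Tsc1, which has 1 annotated transcript of 3896 bases. It was 3.92 for Akt, with 19182 deposited and 4889 exonic bases, and 4.41 for foxo, with 18211 deposited and 4130 exonic bases, each with 5 transcripts.

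**Figure D3:**
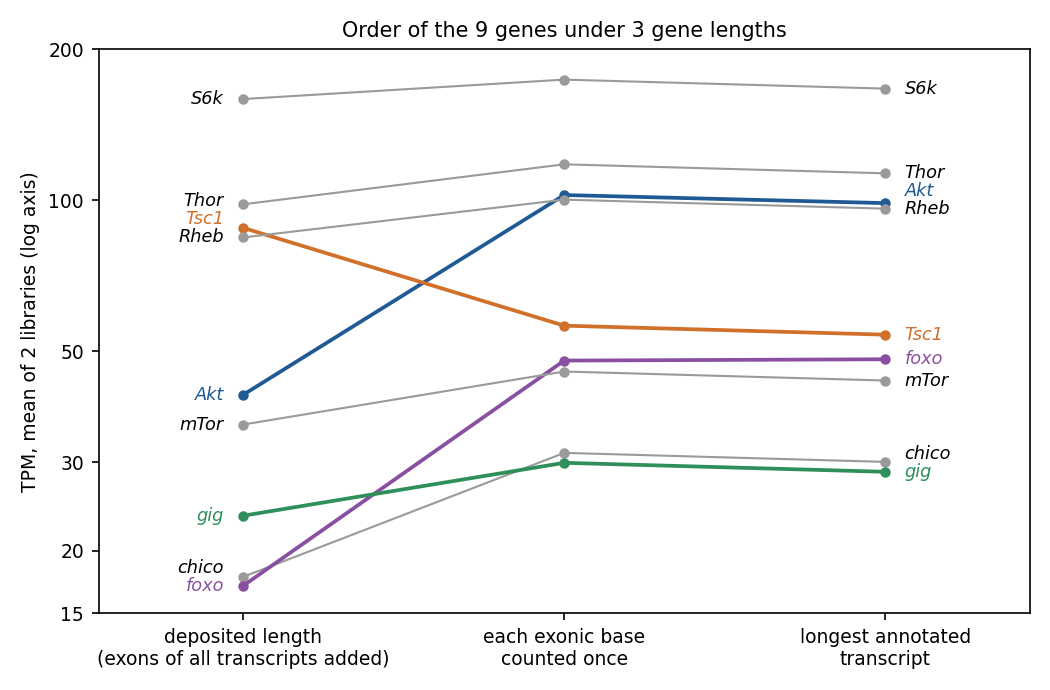
Mean TPM of the 9 genes from the deposited length, from each exonic base counted once and from the longest transcript, joined by lines on a log axis. The lines of Akt and foxo climb, to 102 and 47.9 TPM with exonic length, and that of Tsc1 drops to 56.2 TPM, so the lines cross.

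With each exonic base counted once, the TPM of detected protein-coding genes shifted by a median of 0.22 on the log2 scale, and 5 of the 9 genes stayed within 0.5 of that shift: S6k, Thor, Rheb, mTor and gig. The other 4 moved further. Relative to the shift, foxo was higher by 1.27, Akt by 1.10 and chico by 0.60, and Tsc1 fell by 0.87 on the log2 scale. The level of Akt became 102 ± 2.57 TPM and that of foxo 47.9 ± 1.24 TPM (SD, n = 2). That of chico became 31.3 ± 0.593 TPM and that of Tsc1 56.2 ± 0.969 TPM (SD, n = 2).

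The order of the genes changed with them. By deposited TPM it was S6k, Thor, Tsc1, Rheb, Akt, mTor, gig, chico and foxo, from high to low. With exonic length it was S6k, Thor, Akt, Rheb, Tsc1, foxo, mTor, chico and gig, and the longest annotated transcript gave that order too. S6k and Thor were first and second in both libraries under all 3 lengths. Akt and Rheb could not be ordered with exonic length, since Akt was higher in replicate 1, 104.2 against 98.8 TPM, and lower in replicate 2, 100.6 against 101.7 TPM. For other neighbours, the lowest interval bound of the higher gene over both libraries was set against the highest bound of the lower gene. By this strict rule, which mixes libraries, Thor and Tsc1, Tsc1 and Rheb, and chico and foxo overlapped on the deposited scale. With exonic length foxo and mTor, and chico and gig, did so. Within each library Thor and Tsc1 did not overlap. Their intervals were 91.0 to 100.7 against 83.9 to 89.5 TPM in replicate 1, and 95.4 to 105.7 against 86.5 to 92.4 TPM in replicate 2.

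Ratios between working partners moved accordingly. The ratio of gig to Tsc1 was 0.267 by deposited TPM and 0.533 with exonic length, so gig stayed the lower of the TSC partners while the gap narrowed. The ratio of Akt to Tsc1 was 0.464 by deposited TPM and 1.82 with exonic length, a turn of direction. That of Rheb to Tsc1 turned as well, with 0.957 and 1.78. Against Akt, its substrate foxo held a ratio of 0.416 and 0.467 on the deposited and the exonic scale. These pairs, other than gig and Tsc1, were picked after their values had been seen.

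Strand was the other point at which counting could alter a level. The libraries were stranded, and the deposited counts are those of the strand of the gene. Read pairs on the opposite strand came to between 0.532% (Thor) and 2.85% (Tsc1) of those on both strands, with a median of 1.26% over the 9 genes and 1.46% over the detected protein-coding genes. An antisense RNA, asRNA:CR44995 (FBgn0266330, chromosome 2L, 10242685 to 10245977, plus strand), lies inside chico, and all of its 380 exonic bases are shared with chico exons. Its own strand held 3 and 1 read pairs in replicates 1 and 2, while 364 and 348 lay on the strand of chico. When strand is ignored, read pairs in that overlap are assigned to neither gene, and chico fell to 1571 and 1525 counts, against 1911 and 1853 with strand. Its mean level without strand was 14.8 TPM, against 17.7 TPM with it. No other gene of the list lost over 0.121% of its read pairs in this way. Genes nested in introns of gig (obst-J and CG7335) and S6k (CG42272) share no exonic bases with their hosts.

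The other genes of the pathway were taken from a list of 47 in 7 groups, of which 37 (78.7%) were detected, against 59.5% of the 13883 protein-coding genes of the table. The 37 detected genes had a median of 40.0 TPM by deposited length and 60.2 TPM with exonic length. Over the detected protein-coding genes these medians were 32.7 and 37.8 TPM. Replicate shares differed beyond counting error for 5 of the 37, set beside 9.87% of all tested genes, and nothing is read from this count. They were ImpL2, trbl, eIF4E1, Lk6 and Myc, all with a log2 ratio between -0.08 and 0.04.

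**Figure D4:**
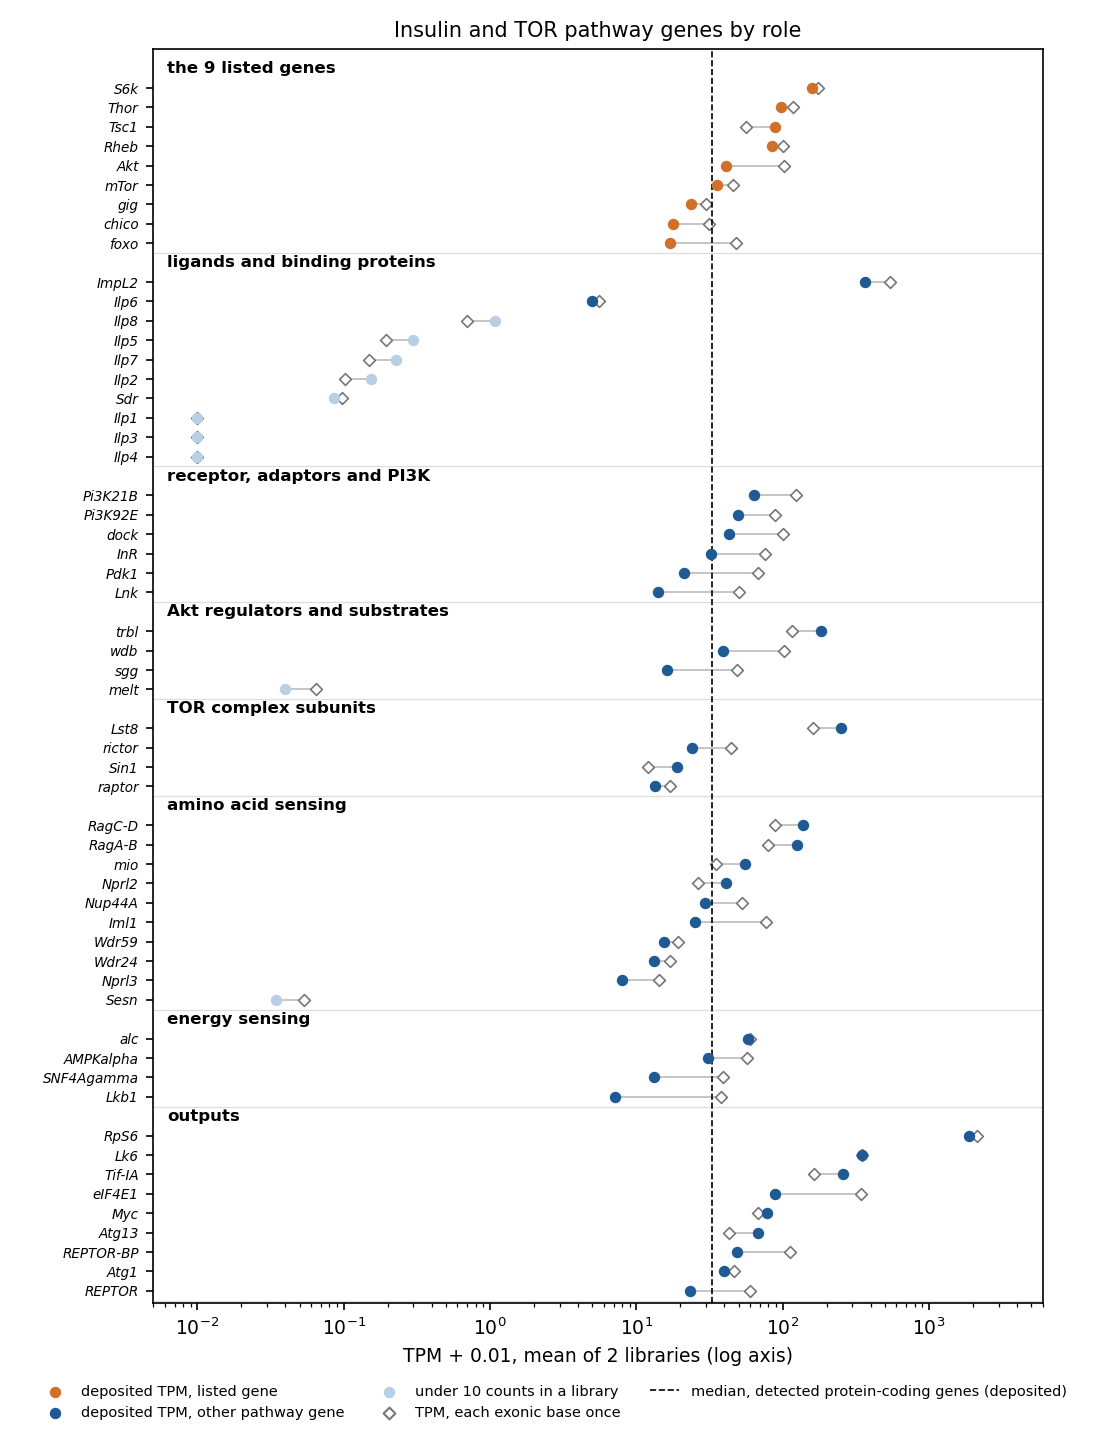
Mean TPM of the 9 genes and of 47 other pathway genes by role on a log axis, with filled points for deposited TPM and open diamonds for each exonic base counted once. The 8 undetected genes among the ligands and binding proteins lie at or below 1.08 TPM, while the detected genes of the other groups lie between 7.19 and 1864 TPM by deposited length.

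Few genes for insulin-like peptides were detected. Of 10 genes for ligands and secreted binding proteins, 8 were under the detection minimum. Ilp1, Ilp3 and Ilp4 had 0 counts in both libraries, which allows up to 0.0897 CPM in replicate 1 and 0.0946 CPM in replicate 2, taking 3 counts as the limit. Ilp2, Ilp5, Ilp7 and the binding protein gene Sdr had at most 6 counts in either library. Ilp8, a peptide that delays maturation when tissue is damaged, had 9 and 11 counts, with 33 and 28 on the opposite strand, so that replicate 1 fell short of the minimum of 10, and with strand ignored it had 34 and 36 counts. The detected members were Ilp6, the growth factor secreted by fat body in larvae, with 249 and 199 counts and 4.98 ± 0.561 TPM (SD, n = 2), and ImpL2, a secreted binder of insulin-like peptides, with 365 ± 10.1 TPM (SD, n = 2). The binder was thus above every one of the 9 genes, and it stayed above them with exonic length, at 538 TPM.

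All 6 listed genes for the receptor, its adaptors and PI3K were detected. Pi3K21B, the regulatory subunit of PI3K, was the highest at 63.9 ± 0.306 TPM, and Lnk, an adaptor of InR, the lowest at 14.1 ± 0.328 TPM (SD, n = 2). Of 4 regulators and substrates of Akt, trbl, an inhibitor of Akt, was the highest by deposited TPM at 182 ± 8.63 and sgg, the fly GSK3, the lowest of those detected at 16.3 ± 0.293 (SD, n = 2). This order rests on the length, since sgg had 48.8 TPM with exonic length and 117 TPM with the longest transcript, where trbl had 111 TPM. The fourth, melt, had 4 counts in each library. By deposited TPM, trbl was the higher and Akt the lower of that pair, at 40.9 TPM for Akt and 182 TPM for trbl, and with exonic length they were nearer, at 102 and 116 TPM.

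The 4 genes for other subunits of the TOR complexes were detected. At 35.7 TPM, mTor was above raptor, which recruits substrates to TORC1, at 13.4 ± 0.0693 TPM (SD, n = 2), a ratio of 2.67 by both the deposited and the exonic length. It was also above rictor, the TORC2 subunit, at 23.9 ± 0.664 TPM, and Sin1, at 18.9 ± 1.51 TPM (SD, n = 2). The ratio of mTor to rictor was 1.49 by deposited TPM and 1.02 with exonic length, where the gap to rictor largely closed. Lst8, a subunit of both complexes, was the highest at 252 ± 0.566 TPM (SD, n = 2), and the ratio of mTor to Lst8 was 0.142 by deposited TPM and 0.283 with exonic length.

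Among 10 genes of amino acid sensing upstream of TORC1, 9 were detected, with Nprl3 of the inhibitory GATOR1 complex the lowest at 7.92 ± 0.256 TPM and the Rag GTPase gene RagC-D the highest at 138 ± 4.53 TPM (SD, n = 2). Sesn, the fly sestrin, had 3 and 4 counts. The 4 genes of energy sensing, AMPK and its activating kinase, ran between 7.19 ± 0.114 TPM for Lkb1 and 57.7 ± 0.644 TPM for alc by deposited length (SD, n = 2). With exonic length Lkb1 had 38.2 TPM and alc 60.2 TPM, and with the longest transcript SNF4Agamma was the highest at 71.0 TPM, against 57.8 TPM for alc. All 9 output genes were detected. REPTOR, a transcription factor held in check by TORC1, was the lowest by deposited TPM at 23.4 ± 0.206, and RpS6, the ribosomal protein that S6k phosphorylates, the highest at 1864 ± 29.3 TPM (SD, n = 2). With exonic length REPTOR had 59.9 TPM and Atg13, of the kinase complex that starts autophagy, was the lowest at 43.2 TPM, while RpS6 was the highest under all 3 lengths. The level of S6k was 0.0853 times that of RpS6 by deposited TPM.

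Thor acts by binding eIF4E1, the cap-binding protein of translation initiation, and this pair showed how far the length definition reaches. Thor had 98.1 TPM and eIF4E1 89.0 ± 3.74 TPM (SD, n = 2) on the deposited scale, a ratio of 1.10. With exonic length Thor had 118 TPM and eIF4E1 341 TPM, a ratio of 0.346, and the longest transcript gave 0.278. The deposited length of Thor is 1.88 times its exonic length, and that of eIF4E1 exceeds its exonic length by more than that of any of the 9 genes.

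The libraries were of similar depth, with 42634176 read pairs in replicate 1 and 40173312 in replicate 2, of which 78.4% and 79.0% were counted on genes. The labelled cell type was checked with marker genes. Kc167 cells have features of hemocytes, the blood cells of the fly, and all 8 hemocyte markers examined were detected, between 1.76 TPM for NimC1 and 188 TPM for He by deposited length. With exonic length Col4a1 was the highest of them at 263 TPM, against 218 TPM for He. The fat body markers Lsp1alpha and Fbp1 had at most 1 count in a library and the testis markers dj and betaTub85D at most 4. Of the muscle markers, Mhc reached the detection minimum with 25 and 24 counts, at 0.0160 TPM, and Act88F had at most 2 counts. The neuronal markers elav, with 275 and 278 counts, and nSyb, with 15 in each library, and the germ line marker vas, with 213 and 226 counts, were detected at 0.0752 to 3.05 TPM. Their part in the levels given here was not tested. Detection did not by itself set the hemocyte markers apart from those of neurons and germ line. By deposited length NimC1, at 1.76 TPM, lay below vas, at 3.05 TPM, and Pxn and eater had 4.18 and 5.41 TPM. With exonic length eater also lay below vas, at 3.45 against 5.73 TPM. The remaining hemocyte markers ran from 45.8 TPM for srp upward by deposited length.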

How the data were processed

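RNA was extracted from Kc167 cells with TRIzol, and libraries were made with a stranded poly(A) kit and sequenced in pairs on an Illumina instrument. Per the labels and the submitters' processing notes, reads were aligned to dm6 with STAR 2.7.1a. The authors deposited read counts per gene in 3 strand columns for each library, and a table with the counts of the gene's own strand, a gene length, and TPM for each library and as their mean. The deposited length, a number of bases, was set beside Ensembl release 115 (BDGP6.54), from which coordinates and transcripts were taken. In that table, 0 columns of values belonged to neither a sample nor a group. Read pairs assigned to no gene, 21.6% of replicate 1 and 21.0% of replicate 2, were left out of library totals.

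Gene symbols came from a name table and matched 17709 of 17807 identifiers. Tor was matched as mTor. CPM (from the deposited counts), TPM with other lengths (each exonic base once, longest transcript) and TPM from unstranded counts were computed here. The binomial intervals were tested on data simulated with counting error only. That simulation held no further spread between libraries, so it cannot say how the intervals behave where such spread is present. With 2 libraries of 1 condition no differential test and no likeness of patterns was computed. Library sizes of edgeR 4.0.16 (TMM) and DESeq2 1.42.0 (R 4.3.3) served as alternatives. All else ran in Python 3.11.15 (scipy 1.17.1, numpy 2.4.6, matplotlib 3.10.9, pandas 2.3.3). An alternative counted as unchanged within 1 SD of the replicates, or within 1.5 times for a count of genes. With 2 replicates, the level of a gene in either library always lies within 1 SD of their mean. For such a level, leaving out a replicate could therefore not count as a change.

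The genes, the pathway and marker lists and the measures were chosen with earlier results of these data known. Named were all 9 genes, and of the other pathway genes those under 10 counts, the highest and lowest of each group, and InR, raptor, rictor, Pdk1, eIF4E1 and RpS6. Sin1, Lst8, ImpL2, trbl, Lk6, Myc, SNF4Agamma and Atg13, where outside that rule, were named after their values had been seen. A gene planned for the pathway list is not reported here, the marker nos was not analysed here, and no genome sequence was used.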

Additional observations from a re-analysis of the deposited data

How the results depend on the processing

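All 9 genes were detected with a minimum of 1 or 100 counts, with unstranded counts and without either replicate. At the main minimum of 10 counts, 59.5% of all protein-coding genes were detected. Of the 47 other pathway genes, 43 passed a minimum of 1 count, 37 a minimum of 100, 38 the minimum of 10 with unstranded counts, and 37 to 38 when a replicate was left out. The median level of the 9 genes was 40.9 TPM, and became 56.2 TPM with each exonic base counted once, 53.9 TPM with the longest transcript, 42.0 TPM with unstranded counts and 101.9 CPM with no length. Over the detected protein-coding genes the median was 32.7 TPM by deposited length and 37.8 TPM with exonic length. It was 37.4 TPM with the longest transcript and 41.4 CPM with no length. The ratio of the highest to the lowest was 9.35, and 5.81 with exonic length or longest transcript, and 11.0 with unstranded counts. That of gig to Tsc1 was 0.267, and 0.533 with either other length and 0.261 with unstranded counts. Without a replicate these 3 values ran over 40.3 to 41.5 TPM, 9.20 to 9.51, and 0.265 to 0.268. With exonic length and longest transcript, Akt to Tsc1 turned to 1.82 and 1.83, Rheb to Tsc1 to 1.78 with both, and Thor to eIF4E1 to 0.346 and 0.278. These 3 ratios were chosen after seeing the data. Akt was the 1 gene of the list whose replicate share left the library share under TMM, DESeq2 size factors, unstranded counts, no count minimum and a 99% interval. In that order, these settings called 9.46%, 9.53%, 9.67%, 7.13% and 3.90% of all tested genes. Nothing is read from the call of Akt. No paired analysis was possible because there is 1 group. Depth limits the calls of the undetected peptide genes.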
